A study of Chlamydomonas reinhardtii with 2 samples.

Results

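The genes described here code for the autophagy machinery and for proteases of chloroplasts, mitochondria and vacuole-type compartments in Chlamydomonas reinhardtii, a unicellular green alga. They were selected from 17147 measured gene loci by symbol prefixes such as APG, CEP, CLP, DEG and FTSH. Of 59 matching symbols, 1 was dropped because its description named another function, which left 58 genes. The dropped gene was MCA1, a stability factor for a chloroplast mRNA and not a metacaspase. The 58 genes comprised 6 autophagy genes, 17 Clp genes, 10 Deg genes, 2 FtsH genes, 4 CEP cysteine endopeptidase genes, 10 RBL rhomboid genes, 3 SPP signal peptide peptidase genes, 3 TSP tail-specific protease genes and the single genes EGY1, LON1 and PREP1.

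RNA sequencing libraries had been made from wild-type strain CC-1690, also called 21gr, which carries no listed mutation or transgene. One culture was kept for 24 h in TAP, an acetate medium with 1.1 mM phosphate (phosphate replete), and the other for 24 h in TA medium to which no phosphate was added (phosphate deprived). Both were shaken at 200 rpm and 25 °C in constant light at 70 µmol m-2 s-1. Each condition had 1 library, so no value below has a replicate error, no test was possible, and culture, library and phosphate supply cannot be told apart.

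Levels are RPKM as deposited, read counts scaled to transcript length and library depth, and can be compared between genes because they are per length. PSR1, the regulator of the phosphorus starvation response in this alga, had 0.659 RPKM with phosphate and 16.4 RPKM without, the direction its label calls for. The log2 folds below compare the deprived with the replete library after 1 RPKM was added to each value, which understates differences of weakly expressed genes. The median log2 fold over the 13855 genes with a mean of at least 1 RPKM was 0.14, and gene groups are therefore also placed relative to that median. Ratios without the added 1 RPKM are given with a 95% counting interval (Clopper-Pearson), computed as if each transcript were 1000 bases long, since transcript lengths were not used here. At that length about 122 reads with phosphate and 141 reads without lie behind 10 RPKM. This depth was inferred from genes that share 1 ratio between the libraries, read as genes with added counts only. The largest replete value among them was taken to stand for a length of 1 base. That reading was not checked, and the intervals rest on it. The intervals cover counting error only, not the spread between cultures. Where a pair of values follows a gene, the replete library comes first. In RNA from a whole culture, fewer cells with a transcript and less of it per cell cannot be told apart.

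Autophagy encloses cytoplasm in a double membrane and delivers it to the vacuole for breakdown. APG8 (ATG8 in other species) is a small ubiquitin-like protein that is attached to a lipid of the growing membrane, and APG7, APG3, APG10 and APG12 act in the conjugation reactions that place it there. Chloroplasts rely on proteases of bacterial descent: the Clp complex, a barrel of ClpP and ClpR subunits fed by Hsp100 chaperones, which degrades soluble stromal proteins, the membrane-bound FtsH metalloproteases, known for removing damaged photosystem II proteins, and the Deg serine proteases, which need no ATP.

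Of the 58 genes, 55 had a mean of at least 1 RPKM and entered the counts. The other 3 were CLPS2 (0.378 RPKM replete, 1.01 RPKM deprived), DEG2 (0.645 and 0.690 RPKM) and SPP1C (0.0959 and 0.0565 RPKM), the last described in the deposited table as a zygote transcript. Past 2-fold on the higher side under deprivation were 4 of 55 genes (7.27%), beside 5.59% of all genes, namely DEG1C, APG7, APG8 and CEP1. At least 2-fold lower were 2 of 55 (3.64%), beside 1.64% of all genes, namely CLPR4 and CLPT4. With a limit of 1.5-fold, 12 genes (21.8%) were higher beside 18.1% of all genes, and 8 genes (14.5%) were lower beside 6.66% of all genes. The median log2 fold of the 55 genes was 0.10, close to the 0.14 of all genes, and 26 of them lay above the median of all genes, where 50% of genes lie. The split between higher and lower genes depended on scaling. Scaling to the same median gave 1 gene at least 2-fold higher and 4 lower (3.63% and 3.10% of all genes), and trimmed mean scaling gave 1 and 3 (3.74% and 2.88%). Quantile normalization gave 2 and 2 (3.70% and 2.85%), and a common sum gave 4 and 1 (6.53% and 1.33%). The 12 genes at least 1.5-fold higher became 4 after scaling to the same median (10.7% of all genes), 5 by trimmed mean (11.5%), 6 by quantiles (10.7%) and 13 with a common sum (21.7%). The 8 genes at least 1.5-fold lower became 10 under the first 3 of these scalings (11.2%, 10.4% and 10.99% of all genes) and 6 with a common sum (5.41%).

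**Figure D1:**
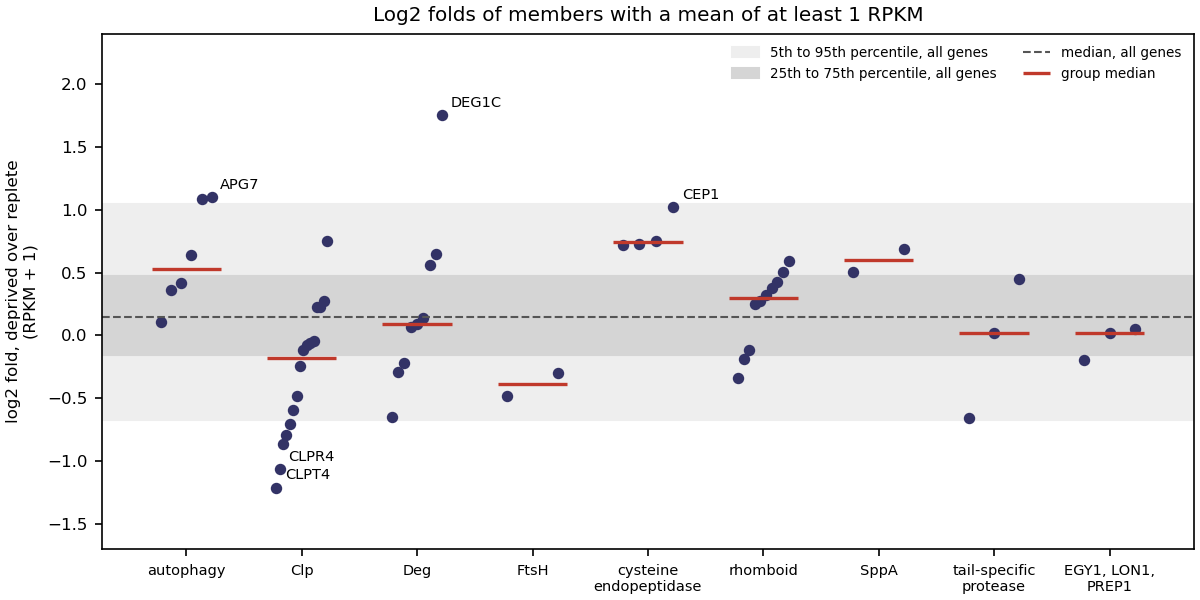
Log2 fold of RPKM + 1, deprived over replete, for each of the 55 genes with a mean of at least 1 RPKM (points), by group, with the group median (red line) and the spread of 13855 genes (grey bands, dashed median). Autophagy and cysteine endopeptidase genes lie mostly above the dashed line, FtsH and most Clp genes below it, and DEG1C stands alone at 1.75.

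All 6 autophagy genes had a log2 fold above 0, as did 62% of all genes, and 5 of 6 lay above the median of all genes. Their median log2 fold was 0.53. The conjugation enzyme APG7 and its substrate APG8 had the highest folds of the group, and the autophagy transcripts together summed to 102 RPKM with phosphate and 201 RPKM without, a ratio of 1.98 that was 1.57 without APG8.

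APG8 (Cre16.g689650) had 74.5 RPKM with phosphate and 159 RPKM without, a ratio of 2.13 (95% counting interval 1.98 to 2.31) and a log2 fold of 1.08. It was the most abundant autophagy transcript in each library and made up 73.4% of the group's summed RPKM with phosphate and 79.0% in the deprived library. APG7 (Cre03.g165215), the E1-like enzyme that activates APG8 and APG12, had 3.32 and 8.26 RPKM, a ratio of 2.49 (1.79 to 3.82) and a log2 fold of 1.10. Of all 13855 genes, 4.33% had a higher log2 fold than APG7 and 4.53% a higher one than APG8. APG7 was the fifth most abundant of the 6 transcripts in the replete library and the third in the deprived one.

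APG3 (Cre02.g102350), the E2-like enzyme that transfers APG8 to lipid, had 11.4 and 18.3 RPKM, a ratio of 1.61 (1.31 to 2.0) and a log2 fold of 0.64. The second branch of the conjugation system had smaller folds. APG12 (Cre12.g557000), the other ubiquitin-like protein, had 6.15 and 8.19 RPKM and a log2 fold of 0.36. APG10 (Cre12.g532314), the E2-like enzyme of APG12, had 4.17 and 4.55 RPKM and a log2 fold of 0.10, below the median of all genes. The counting intervals of the APG12 ratio (0.989 to 1.81) and the APG10 ratio (0.745 to 1.62) both include 1, and both overlap that of APG3. APG6 (Cre01.g020250), the Beclin-type subunit of the lipid kinase complex that starts the membrane, had 2.01 and 3.01 RPKM and a log2 fold of 0.41, with an interval of the ratio from 0.909 to 2.71. The APG8 level was 22.4 times that of APG7 with phosphate and 19.2 times without. Scaling the libraries to the same median, by trimmed mean or by quantiles put APG10 below 0 and left the other 5 above it.

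Further components of this system were looked up by description after the values were seen. A locus without a symbol, Cre02.g126650, described as an Apg1-like kinase, the kind that starts autophagy in yeast, had 7.51 and 6.57 RPKM and a log2 fold of -0.17. A list of 31 genes for autophagy control and vacuolar sorting was picked by symbol. Past 2-fold were 0 of them in either direction, beside 5.59% of all genes on the higher and 1.64% on the lower side. The list had a median log2 fold of 0.27, with 21 genes above the median of all genes. Its largest folds were those of VPS33, a membrane fusion protein (3.59 and 6.24 RPKM, log2 fold 0.66), of the gene with the symbol VPS4 that is described as a katanin subunit (7.53 and 11.8 RPKM, 0.59) and of VPS2A, a subunit of the membrane-cutting ESCRT-III complex (11.99 and 17.8 RPKM, 0.54). VPS34, the lipid kinase that works with APG6, had 1.86 and 2.77 RPKM (0.40), and LST8, a partner of the TOR kinase that restrains autophagy, had 15.2 and 12.9 RPKM (-0.22).

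Papain-type cysteine endopeptidases are proteases of vacuoles and lysosomes in many organisms. All 4 CEP genes exceeded a 1.5-fold higher value under deprivation, as did 18.1% of all genes, with log2 folds from 0.72 to 1.02. That count depended on scaling. It was 1 of 4 (CEP1) after scaling to the same median (10.7% of all genes) and 2 by trimmed mean (11.5%). By quantiles it was 2 (10.7%) and with a common sum 4 (21.7%). CEP1 (Cre09.g407700) had 145 RPKM with phosphate and 295 RPKM without, a ratio of 2.04 (1.93 to 2.15), and was the most abundant of the 58 transcripts in the deprived library. CEP2, described as similar to senescence-associated proteases of plants, had 77.6 and 129 RPKM (ratio 1.66, 1.54 to 1.80). CEP5 had 15.8 and 26.8 RPKM (1.69, 1.42 to 2.03), and CEP4 had 4.61 and 8.45 RPKM (1.83, 1.36 to 2.64). The order CEP1, CEP2, CEP5, CEP4 was the same in each library. The counting intervals of CEP2, CEP4 and CEP5 overlap, and that of CEP1 overlaps those of CEP4 and CEP5 but not that of CEP2. The summed level of the 4 genes was 243 RPKM with phosphate and 459 RPKM without. Each of the 4 stayed above the median of all genes under every scaling, pseudocount and filter tried.

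**Figure D2:**
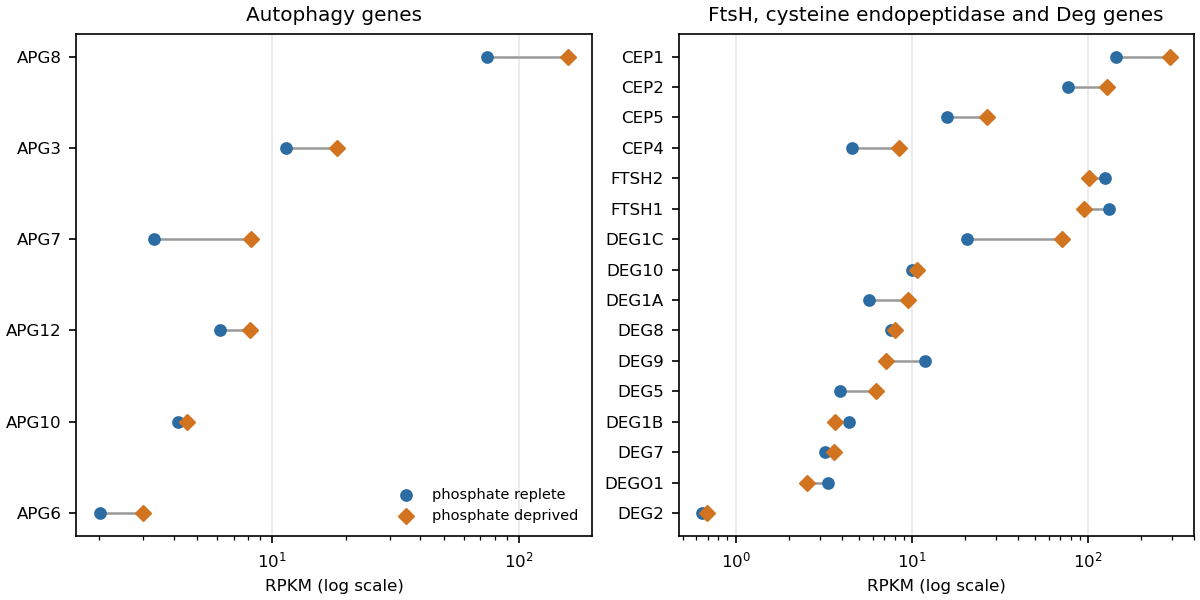
RPKM on a log scale in the replete (circles) and deprived (diamonds) library, 1 library each, for the 6 autophagy genes (left) and the CEP, FtsH and Deg genes (right), ordered by deprived level within a group. APG8, APG7, the 4 CEP genes and DEG1C lie to the right in the deprived library, and FTSH1, FTSH2 and DEG9 to the left.

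The Clp genes lay below all genes on balance, and the 6 that were at least 1.5-fold lower all code for the chloroplast protease core. Of 16 Clp genes with a mean of at least 1 RPKM, 12 lay below the median of all genes. The 6 at least 1.5-fold lower stand beside 6.66% of all genes and the 1 at least 1.5-fold higher, CLPB3, beside 18.1%. After scaling to the same median or by trimmed mean these counts were 7 lower, with CLPR3 added, and 0 higher. By quantiles they were 7 lower and 1 higher. With a common sum or a pseudocount of 5 RPKM they were 5 lower, with CLPR2 lost, and 1 higher. The shares of all genes moved as well. Lower were 11.2% (same median), 10.4% (trimmed mean), 10.99% (quantiles), 5.41% (common sum) and 3.83% (pseudocount of 5 RPKM). Higher were, in that order, 10.7%, 11.5%, 10.7%, 21.7% and 8.06%. The median log2 fold of the Clp genes was -0.18, and it was -0.49 without the 3 ClpB genes, which code for protein disaggregases and not for parts of the protease. Roles within the group were taken from the deposited descriptions with the values already known, so the subsets are descriptive.

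The chloroplast core was represented by 9 nuclear genes, the active subunits CLPP4 and CLPP5, the inactive subunits CLPR1, CLPR2, CLPR3, CLPR4 and CLPR6, and the accessory subunits CLPT3 and CLPT4. Together they summed to 653 RPKM with phosphate and 405 RPKM without, a ratio of 0.621. Of the 9, 8 had a log2 fold below 0 as deposited, while 62% of all genes lay above 0. The count stayed 8 of 9 whichever of the 4 scalings was applied. As deposited and after each scaling, 8 of 9 also lay below the median of all genes. A further ClpP subunit is encoded in the chloroplast genome of this alga and was not analysed here.

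The most abundant Clp transcript, CLPP5 (Cre12.g486100), had 160 RPKM with phosphate and 97.8 RPKM without, a ratio of 0.610 (95% counting interval 0.569 to 0.653) and a log2 fold of -0.71. CLPP4 (Cre12.g500950) had 124 and 71.0 RPKM, a ratio of 0.573 (0.528 to 0.620) and a log2 fold of -0.80. The intervals of these catalytic subunits overlap.

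The ClpR proteins resemble ClpP but lack the catalytic residues. CLPR4 (Cre03.g204350) had 73.7 and 34.7 RPKM, a ratio of 0.471 (0.421 to 0.526) and a log2 fold of -1.06. CLPR1 (Cre14.g619100) had 70.8 and 38.4 RPKM, a ratio of 0.543 (0.486 to 0.603) and a log2 fold of -0.87. CLPR2 had 61.2 and 40.3 RPKM (log2 fold -0.59) and CLPR3 had 22.3 and 15.6 RPKM (-0.49). CLPR6 did not follow the others, with 71.6 and 68.0 RPKM, a ratio of 0.949 (0.866 to 1.04) and a log2 fold of -0.07. CLPR4 and CLPR6 were thus at nearly the same level in the replete library (CLPR4 over CLPR6, 1.03) and apart in the deprived library (0.511).

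The genes of the ClpT proteins, which associate with the core, differed in direction. CLPT4 (Cre60.g792250) had 55.2 RPKM with phosphate and 23.2 RPKM without, a ratio of 0.421 (0.367 to 0.479). Its log2 fold of -1.21 was the lowest of all 55 genes, and 0.794% of the 13855 genes had a lower one. CLPT3 (Cre10.g417550) had 13.7 and 16.2 RPKM, a ratio of 1.18 (0.963 to 1.45), and was the only core gene above 0. The level of CLPT4 exceeded that of CLPT3 in each library.

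The chaperone gene CLPD and the adaptor gene CLPS1 were not lower with the chloroplast core. CLPD, an Hsp100 chaperone that feeds the core, had 66.9 and 78.6 RPKM, a log2 fold of 0.23. CLPP5 was 2.396 times as abundant as CLPD in the replete library and 1.24 times in the deprived library, and CLPD passed CLPP4 (CLPP4 over CLPD, 1.85 and 0.904). The adaptor gene CLPS1, whose bacterial counterpart delivers substrates to the complex, had 30.3 and 36.8 RPKM (log2 fold 0.27). Scaling to the same median left log2 folds of 0.02 for CLPD and 0.07 for CLPS1. The mitochondrial protease genes CLPP2 (11.4 and 11.005 RPKM, -0.04) and CLPX (24.2 and 22.3 RPKM, -0.12) had ratios whose intervals, 0.767 to 1.23 and 0.783 to 1.08, include 1, and scaling to a common sum put CLPP2 and the cytosolic CLPB1 above 0.

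Among the ClpB disaggregases, CLPB3 (Cre02.g090850), described as probably chloroplastic or mitochondrial, had 22.7 RPKM with phosphate and 38.9 RPKM without, a ratio of 1.72 (1.49 to 1.995) and a log2 fold of 0.75, the highest of the Clp genes. The cytosolic CLPB1 had 8.88 and 8.46 RPKM (log2 fold -0.06). CLPB2, described as incomplete, had 1.196 and 0.850 RPKM (-0.25), with an interval of the ratio from 0.263 to 1.65. Of the ClpB genes, 1 of 3 lay above the median of all genes.

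**Figure D3:**
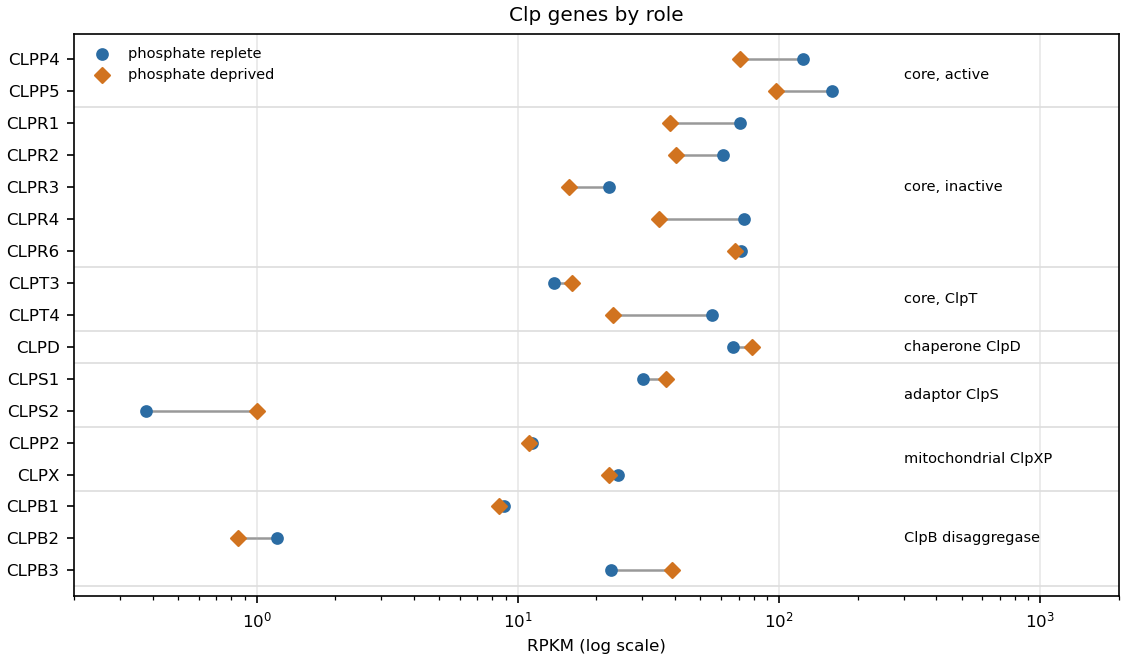
RPKM on a log scale of the 17 Clp genes in the replete (circles) and deprived (diamonds) library, 1 library each, grouped by role. The core genes lie lower in the deprived library except CLPT3 and, nearly level, CLPR6, while CLPD, CLPS1 and CLPB3 lie higher.

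The Deg genes had 1 member far from the rest. DEG1C (Cre12.g498500), a DegP-type serine protease, had 20.6 RPKM with phosphate and 71.9 RPKM without, a ratio of 3.48 (3.05 to 4.03). Its log2 fold of 1.75 was the highest of all 55 genes, and 1.34% of the 13855 genes had a higher one. It was also the only one at least 2-fold higher under each scaling, pseudocount and filter tried, where APG7, APG8 and CEP1 dropped below 2-fold after scaling to the same median and by trimmed mean.

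DEG1C was the most abundant Deg transcript in each library, with 28.9% of the summed Deg RPKM with phosphate and 57.9% in the deprived library. The other 9 Deg genes summed to 50.8 and 52.3 RPKM. The median log2 fold of the 9 Deg genes with a mean of at least 1 RPKM was 0.09, with 3 of 9 above the median of all genes, so the group as such lay near all genes.

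Its relatives differed. DEG1A (Cre02.g088400) had 5.74 and 9.56 RPKM, a ratio of 1.67 (1.27 to 2.31) and a log2 fold of 0.65. DEG1B, which the deposited table describes as a recent duplicate of DEG1A, had 4.43 and 3.66 RPKM (log2 fold -0.22, interval of the ratio 0.547 to 1.23). How reads shared by such copies were counted is not given in the sources used here, so the split between DEG1A and DEG1B is uncertain. DEG5 had 3.91 and 6.25 RPKM (log2 fold 0.56, interval of the ratio 1.12 to 2.35).

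DEG9 (Cre14.g617600) was the lowest Deg gene, with 11.9 and 7.20 RPKM, a ratio of 0.607 (0.463 to 0.781) and a log2 fold of -0.65. The DEG1C level was 1.74 times that of DEG9 with phosphate and 9.99 times without. DEG7 (3.21 and 3.62 RPKM), DEG8 (7.64 and 8.03 RPKM) and DEG10 (10.02 and 10.7 RPKM) had log2 folds of 0.13, 0.06 and 0.09. DEGO1, a Deg-like protein without the catalytic residues, had 3.35 and 2.55 RPKM (-0.29). The intervals of the ratios of DEG7, DEG8, DEG10 and DEGO1 include 1, and the log2 folds of DEG7, DEG8 and DEG10 turned below 0 under every scaling but that to a common sum.

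Both FtsH genes had a log2 fold below 0, while 62% of all genes lay above 0. Both folds were closer to 0 than the Clp core median of -0.71. FTSH1 (Cre12.g485800) had 133 RPKM with phosphate and 95.01 RPKM without, a ratio of 0.715 (0.665 to 0.769) and a log2 fold of -0.48. FTSH2 (Cre17.g720050) had 125 and 101 RPKM, a ratio of 0.809 (0.753 to 0.870) and a log2 fold of -0.30. Neither was 1.5-fold different as deposited, but FTSH1 passed 1.5-fold on the lower side when the libraries were brought to the same median (-0.69), by trimmed mean (-0.66) and by quantiles (-0.59). In plants these types form 1 mixed complex in the thylakoid membrane, and here their levels stayed close to each other, with FTSH1 over FTSH2 at 1.06 with phosphate and 0.939 without. At 9.20% for FTSH1 and 15.4% for FTSH2, a minority of all genes had a lower log2 fold. The intervals of FTSH1 and of the active Clp subunits CLPP4 and CLPP5 do not overlap.

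Set side by side relative to the median of all genes, the group medians were 0.39 for autophagy, -0.06 for Deg, -0.33 for Clp and -0.53 for the 2 FtsH genes. These are descriptions of 2 libraries and genes are not replicates, so the differences between groups carry no test. The autophagy and FtsH ranges did not overlap, with log2 folds of 0.10 to 1.10 and of -0.48 to -0.30. The Clp range (-1.21 to 0.75) and the Deg range (-0.65 to 1.75) overlapped with each other and with those of the other groups. Relative to all genes, the autophagy median stayed above and the Clp and FtsH medians below under every setting tried. The Deg median moved above the median of all genes, to 0.21, when only genes with a mean of at least 5 RPKM were kept.

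**Figure D4:**
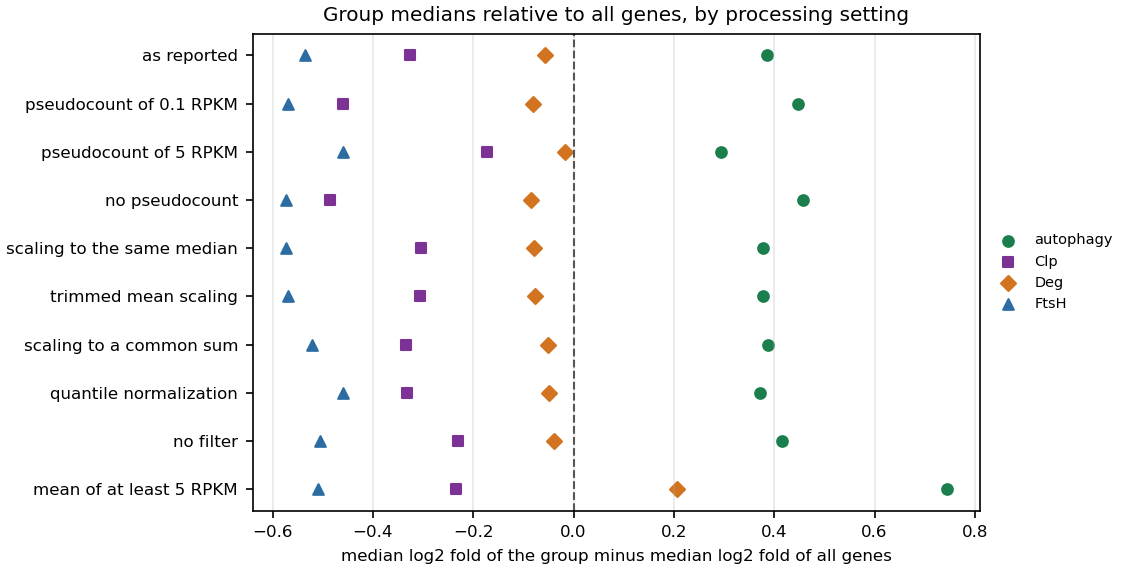
Median log2 fold of each group minus the median log2 fold of all genes (x axis) under the reported and 9 other processing settings (y axis), 1 point per group. Autophagy stays right of the dashed line, Clp and FtsH left of it, and Deg lies close to it except with a mean of at least 5 RPKM.

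The remaining proteases belong to smaller families. Rhomboids are serine proteases that cut other proteins inside the membrane. Their 10 genes had log2 folds between -0.34 and 0.59, with a median of 0.30 and 7 above the median of all genes. RBL7 had 3.66 and 6.02 RPKM (log2 fold 0.59) and RBL1 had 3.64 and 5.56 RPKM (0.50). RBL3, among the most abundant rhomboid transcripts in the replete library, had 12.3 and 9.51 RPKM (-0.34), and RBL4, the most abundant in each library, had 12.6 and 16.7 RPKM (0.38). RBL8, described as lacking the catalytic serine, had 3.34 and 2.82 RPKM (-0.19). RBL2, RBL5, RBL6, RBL9 and RBL10 lay between -0.12 and 0.43.

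SPP1A and SPP1B are bacterial-type signal peptide peptidases. SPP1A had 3.59 and 6.38 RPKM, a ratio of 1.78 (1.24 to 2.66), and SPP1B had 2.97 and 4.64 RPKM, a ratio of 1.56 (1.04 to 2.48). Both intervals thus lay above 1 at the assumed length, with no allowance for the general shift between the libraries. Scaling to the same median lowered the log2 folds from 0.69 to 0.51 for SPP1A and from 0.51 to 0.34 for SPP1B. Tail-specific proteases, the type that trims the end of the photosystem II protein D1, differed in direction. TSP2 had 3.16 and 1.64 RPKM (ratio 0.520, 0.275 to 0.866), TSP3 had 12.9 and 18.0 RPKM (1.39, 1.14 to 1.71), and TSP1 had 1.86 and 1.90 RPKM (1.02, 0.557 to 1.95), and TSP1, EGY1 and PREP1, near 0, turned below it under every scaling but that to a common sum. EGY1, an intramembrane metalloprotease of plastids, had 30.5 and 31.0 RPKM, a ratio of 1.02 (0.883 to 1.17). PREP1, which degrades cleaved targeting peptides, had 2.30 and 2.42 RPKM, and LON1, the mitochondrial Lon protease, had 5.25 and 4.44 RPKM, with log2 folds of 0.05 and -0.20.

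A further 59 genes described as proteases or peptidases but outside these symbols, 51 of them with a mean of at least 1 RPKM, had a median log2 fold of 0.13, beside 0.14 for all genes, with 24 above the median of all genes. Among them 1 (1.96%) was at least 2-fold higher, beside 5.59% of all genes, and 1 (1.96%) at least 2-fold lower, beside 1.64%. The higher one was CPR1 (Cre11.g471950), a cysteine protease-related gene with 3.27 and 25.9 RPKM. Its ratio had a counting interval of 5.89 to 11.7, and its log2 fold was 2.65. The lower one was the matrix-type metalloprotease gene MMP7 (21.1 and 8.46 RPKM, -1.22). GTP1, a gamma-glutamyl transpeptidase and so not a protein-degrading enzyme, had 12.4 and 23.1 RPKM (0.84). Of the metacaspases, type I (Cre12.g517450) had 5.46 and 7.64 RPKM and type II (Cre03.g184700) had 63.1 and 64.9 RPKM, named here after their values were seen.

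A list of 25 chaperone and membrane maintenance genes was picked by symbol as partners of the plastid proteases. It includes 7 HSP22 genes whose descriptions name no compartment. Of the 25, 23 had a mean of at least 1 RPKM, with 3 past 2-fold on each side, beside 5.59% of all genes on the higher and 1.64% on the lower side. Higher were HSP22F, a small heat shock gene (140 and 537 RPKM, log2 fold 1.93), its neighbour HSP22E (169 and 560 RPKM, 1.72) and the related HSP22B (0.40 and 1.95 RPKM, 1.07). HSP22B was near the floor in the replete library and passed the filter of a mean of 1 RPKM only through its deprived value. Reads of such close copies could be split between them. The lower ones were chaperonin genes, which fold new chloroplast proteins, namely CPN20 (log2 fold -1.39), CPN60A (-1.34) and CPN60B2 (-1.24). All 8 CPN genes of the list had a log2 fold below 0, while 62% of all genes lay above 0. At least 1.5-fold lower were 7 of 8, beside 6.66% of all genes. The median of these CPN genes, a subset not planned beforehand, was -0.92, beside -0.71 for the Clp core. The CPN genes were picked by symbol, and whether all 8 belong to the chloroplast was not checked. VIPP1, a gene for thylakoid membrane maintenance, had 79.3 and 140 RPKM (0.82). The median log2 fold of the list was -0.18.

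By gene order in the RefSeq annotation of assembly Chlamydomonas_reinhardtii_v5.5, in which 46 of the 58 genes were found by locus name, 1 pair of the genes lay within 10 places of each other. CLPP5 and FTSH1, with log2 folds of -0.71 and -0.48, had 5 genes between them. DEG9 lay near the small heat shock genes, with 2 genes between it and HSP22E and 3 between it and HSP22F. Its log2 fold of -0.65 was opposite in sign to the 1.72 and 1.93 of those genes.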

How the data were processed

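The authors deposited RPKM values for 17147 loci in 1 replete and 1 deprived library. Per the submitters' processing notes, Bowtie was among the tools, without a version. Counting method, build, annotation and filters were not stated in the labels or file header, so no coordinates are printed. The table holds no 0, and 1252 genes shared a deprived-to-replete ratio of 0.870 (tolerance 5e-05), none of them among the genes described. This was read as 2 added counts per gene, an inference from the values. The largest replete value among these genes was taken as the added counts at a length of 1 base. That gave the depth per 1000 bases and was not checked.

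Folds were log2 of RPKM plus a pseudocount of 1. A mean of at least 1 RPKM was required. Genes were called by size alone, at 2-fold or 1.5-fold, with no test. Members and lists were chosen with earlier results of these data known. All retained members could be named, with full values for autophagy genes, for the 3 most abundant and 3 most different of each other group and for those at least 1.5-fold different. Calculations used Python 3.11.15, numpy 2.4.6, pandas 2.3.3 and scipy 1.17.1, and were tested on simulated data. Protein sequence features were not analysed here.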

Additional observations from a re-analysis of the deposited data

How the results depend on the processing

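The genes at least 2-fold higher numbered 4 as reported, 1 after scaling to the same median (DEG1C), 1 by trimmed mean (DEG1C) and 2 by quantiles (CEP1 and DEG1C). The shares of all genes were, in that order, 5.59%, 3.63%, 3.74% and 3.70%. Those at least 2-fold lower numbered 2 as reported, 4 after scaling to the same median, and 1 (CLPT4) each with a pseudocount of 5 RPKM, with a common sum and, an alternative added after the data were seen, without members that lack catalytic residues, a set from which CLPR4 is absent by construction. Of all genes, 1.64% were at least 2-fold lower as reported and 3.10% after scaling to the same median. With a pseudocount of 5 RPKM 0.83% were, and with a common sum 1.33%. The FtsH median was -0.39 as reported, -0.60 after scaling to the same median and -0.57 by trimmed mean. These scalings moved the median of all genes from 0.14 to -0.03 and -0.0027. The medians of all members and of Deg turned below 0 there (-0.07 and -0.10; -0.05 and -0.08) and by quantiles (-0.08 each). No gene at least 1.5-fold different changed sign under the 4 scalings. No paired analysis was possible because each condition had 1 library, and no library could be left out. At the assumed length, the counting interval included a ratio of 1 for 13 of 18 genes with a mean under 5 RPKM and for 11 of 37 above it. An interval can include 1 through few reads or through a small fold, and these were not told apart.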
